A study of Mus musculus with 12 samples.

Results

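Core and linker histone genes were followed across normal mouse thymocytes and 2 kinds of MYC-driven T-cell lymphoma. Members were the genes whose symbol in the platform annotation has the form of a histone gene name (such as H1f1, H2ac4, H2bc3, H3c4 or H4c6) and which had a probe set with that single symbol. The rule found 30 of the 19309 genes tested, each with 1 probe set. Of these, 27 lie in the histone gene clusters, 23 of them on chromosome 13 and 4 on chromosome 3 in RefSeq's GRCm38.p6. They are 5 linker histone H1 genes, 4 of H2A, 9 of H2B, 3 of H3 and 6 of H4. The other 3 are the linker histone genes H1f10, H1f7 and H1f8, which lie outside these clusters. Of the 30, 5 are known as germline histones of testis or oocyte (H1f6, H1f7, H1f8, H2ac1 and H2bc1). Variant genes such as H2ax and H2az1 do not match the rule under their present symbols and are described from a separate list.

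Total RNA of thymus was hybridised to 12 single-channel arrays. Normal thymocytes came from wild type mice at 24 days (labelled dpn), with 3 arrays. The control tumors (5 arrays) are labelled as tumor thymocytes of wild type genotype and the Dnmt3a-deficient tumors (4 arrays) as lacking Dnmt3a, a DNA methyltransferase, and both are labelled terminal in place of an age. All mice had the FVB/N background, and in the study Dnmt3a was removed from blood-forming cells while MYC was present. The promoter that drives MYC and the means by which Dnmt3a was removed are not named in the sources used, and normal and tumor samples differ in age as well as in MYC. Whether every array stands for its own animal is not stated, so the p-values reflect only how these arrays vary, which may be technical. Values are log2 expression per probe set, and a difference of 1 is a 2-fold change.

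Histones package DNA into nucleosomes: H2A, H2B, H3 and H4 form the core, and H1 binds the linker DNA between cores. The clustered genes are mostly replication-dependent. Such genes typically have no introns and are transcribed mostly in S phase. Their messenger RNAs typically end in a stem-loop bound by Slbp instead of a poly(A) tail. Npat, a substrate of cyclin E and Cdk2, drives transcription of these genes at histone locus bodies. Variant genes such as H2az1 and H1f10 are expressed more evenly through the cell cycle as polyadenylated RNA, while H2ax gives both a stem-loop and a polyadenylated message. Dividing thymocytes need large amounts of histone messenger RNA.

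The sequences before the start sites are shown because genes of 1 family share some, but not all, promoter words. Their values across the groups took different orders, and no link between words and values was tested. RefSeq's GRCm38.p6 promoter table held 26 of the 30 genes. Its windows have 300 bases, of which 250 lie before the start site. Counts of words are over the whole window, so some of the words counted lie outside the stretches shown. Capitals mark 5 words searched on both strands: the TATA box (TATAAA), the CCAAT box (CCAAT), the octamer of H2A and H2B genes (ATTTGCAT), the core of the H4 element (GGTCCG), and the AC box of H1 genes (AAACACA). None of these words overlapped another in the stretches shown. Each stretch is the 150 bases that end just before the start site, 5′ to 3′ in the direction of the gene. The 4 H4 genes below carried GGTCCG with its first base at position -46 or -47 from the start, and the fifth H4 promoter, that of H4c8, had it at -5.
H4c3, chr13:23698459-23698608, minus strand: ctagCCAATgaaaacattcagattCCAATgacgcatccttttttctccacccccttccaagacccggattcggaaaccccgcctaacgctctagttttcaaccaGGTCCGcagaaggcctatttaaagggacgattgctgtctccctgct
H4c4, chr13:23581418-23581567, plus strand: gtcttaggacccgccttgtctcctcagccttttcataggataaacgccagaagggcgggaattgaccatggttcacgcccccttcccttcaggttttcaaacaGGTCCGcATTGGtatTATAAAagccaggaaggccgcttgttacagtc
H4c6, chr13:23551669-23551818, minus strand: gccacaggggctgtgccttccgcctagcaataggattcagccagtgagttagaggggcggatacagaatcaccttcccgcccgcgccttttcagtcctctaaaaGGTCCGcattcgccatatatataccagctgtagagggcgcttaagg
H4c9, chr13:22041363-22041512, minus strand: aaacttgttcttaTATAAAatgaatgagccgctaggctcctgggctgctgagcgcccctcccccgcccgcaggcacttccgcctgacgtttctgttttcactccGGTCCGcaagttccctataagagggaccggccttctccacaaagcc
GGTCCG was in all 5 H4 promoters of the table and in 8.25% of the 32851 promoters there. Among the other members it was in the H1f10 and H2bc9 windows. The word was settled on with these promoters in view. The tumor values of these 4 H4 genes took different orders, as the values further on show.

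The octamer was in 5 of 7 H2B promoters, in 3 of 4 H2A promoters and in none of the H1, H3 or H4 promoters, against 1.74% of all promoters. The 8 genes share 6 sites, since H2ac8 with H2bc8 and H2ac1 with H2bc1 are head-to-head pairs around 1 octamer each. CCAAT was in 21 of the 26 promoters and in 37.4% of all promoters, and TATAAA in 15 of the 26 and in 13.6%. The 4 H2B genes below were chosen because H2bc3, H2bc9 and H2bc14 differed among the control tumors and H2bc18 was lower in all tumors.
H2bc3, chr13:23746584-23746733, plus strand: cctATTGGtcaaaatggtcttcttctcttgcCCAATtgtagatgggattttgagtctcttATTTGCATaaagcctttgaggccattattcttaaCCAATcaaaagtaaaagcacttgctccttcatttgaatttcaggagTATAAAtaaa
H2bc9, chr13:23543445-23543594, minus strand: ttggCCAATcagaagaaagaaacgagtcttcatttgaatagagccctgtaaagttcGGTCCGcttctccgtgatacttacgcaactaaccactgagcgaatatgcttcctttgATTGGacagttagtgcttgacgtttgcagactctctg
H2bc14, chr13:21721894-21722043, plus strand: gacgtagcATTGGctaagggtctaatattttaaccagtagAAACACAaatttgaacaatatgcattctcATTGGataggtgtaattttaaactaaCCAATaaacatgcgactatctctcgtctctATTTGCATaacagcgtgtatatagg
H2bc18, chr3:96269550-96269699, plus strand: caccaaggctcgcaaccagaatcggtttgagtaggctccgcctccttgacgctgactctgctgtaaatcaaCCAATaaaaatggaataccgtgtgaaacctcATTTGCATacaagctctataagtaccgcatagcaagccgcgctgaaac
H2bc3, H2bc14 and H2bc18 have the octamer in the stretch and H2bc9 has no exact copy. The AC box was in 4 of 5 clustered H1 promoters and in 7.18% of all promoters. It was also in 2 of 4 H2A and 2 of 7 H2B promoters. The 2 linker genes below had the smallest adjusted p-values of the H1 genes.
H1f1, chr13:23763518-23763667, plus strand: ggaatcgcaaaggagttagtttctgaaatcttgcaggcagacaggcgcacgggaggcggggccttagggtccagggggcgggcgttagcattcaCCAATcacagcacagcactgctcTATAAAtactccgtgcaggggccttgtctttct
H1f5, chr13:21780626-21780775, minus strand: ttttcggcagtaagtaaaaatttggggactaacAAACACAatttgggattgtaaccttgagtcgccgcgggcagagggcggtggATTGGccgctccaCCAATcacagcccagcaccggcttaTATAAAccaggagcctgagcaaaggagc
Both have a CCAAT box close to a TATA box. A match is a description of the letters and not a site of binding.

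In the main analysis no histone gene was called higher in either kind of tumor than in normal thymocytes, and about 1 in 2 was called lower. In control tumors 15 of the 30 genes fell and 0 rose (limma, adjusted p under 0.05 over all 19309 genes). Of all genes tested, 11.3% were called lower and 13.0% higher in that comparison. In Dnmt3a-deficient tumors 14 fell and 0 rose, against 19.0% of all genes lower and 18.7% higher. At an unadjusted p under 0.05, 0 members were higher and 21 lower in control tumors, and 2 higher and 15 lower in deficient tumors. The shares of all genes at that threshold were not counted. The median difference of the 30 genes was -0.64 for control tumors, where that of all genes was -0.08, and -0.39 for deficient tumors, where that of all genes was -0.10. The sign of the difference was negative for 29 of 30 genes in control tumors, the exception being H2bc4, and for 20 of 30 in deficient tumors. Both comparisons use the same 3 normal arrays. Genes of 1 histone family have nearly the same coding sequence, so a probe set named for 1 gene can also bind RNA of its relatives. That part was not tested.

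Control tumors 1 and 2 differed from control tumors 3, 4 and 5 in many genes. That split was taken from these same values and is named in no label. Without control tumors 1 and 2, 17 members were lower in control tumors and 0 higher. Without control tumors 3, 4 and 5, 15 were lower and 3 higher, namely H2bc3 (1.31), H2bc4 (1.88) and H4c4 (1.18). Over all 19309 genes, 2404 were lower and 2497 higher without control tumors 1 and 2. Without control tumors 3, 4 and 5, 3149 of all genes were lower and 3705 higher. Of the 15 calls in control tumors over all arrays 9 were kept in every alternative that tested the gene. Of the 14 calls in deficient tumors 12 were. A fit of the upper 50% of genes by mean tested only 20 of the 30 members. H2bc21, counted as kept in both tumor kinds, and H3c7, counted in deficient tumors, were not tested in it. In deficient tumors a fit of only the 2 groups compared called 3 members higher, H2bc3, H2bc4 and H4c4. Array weights called 2 higher, H2bc4 and H4c4. The replicate block called 1 higher, H4c4, and leaving out control tumor 2 called 1, H2bc4. Over all genes those fits called 4165, 4223, 3597 and 3782 higher. Centring each array on its 75th percentile moved the median difference of all genes to -0.29 for control and -0.49 for deficient tumors, and the medians of the 30 members to -0.85 and -0.77. Under that centring 22 members were lower in control tumors and 19 in deficient tumors, with 0 higher in either. Of the 19309 genes, 4185 were then lower and 1982 higher in control tumors, and 9244 lower and 2549 higher in deficient tumors.

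**Figure D1:**
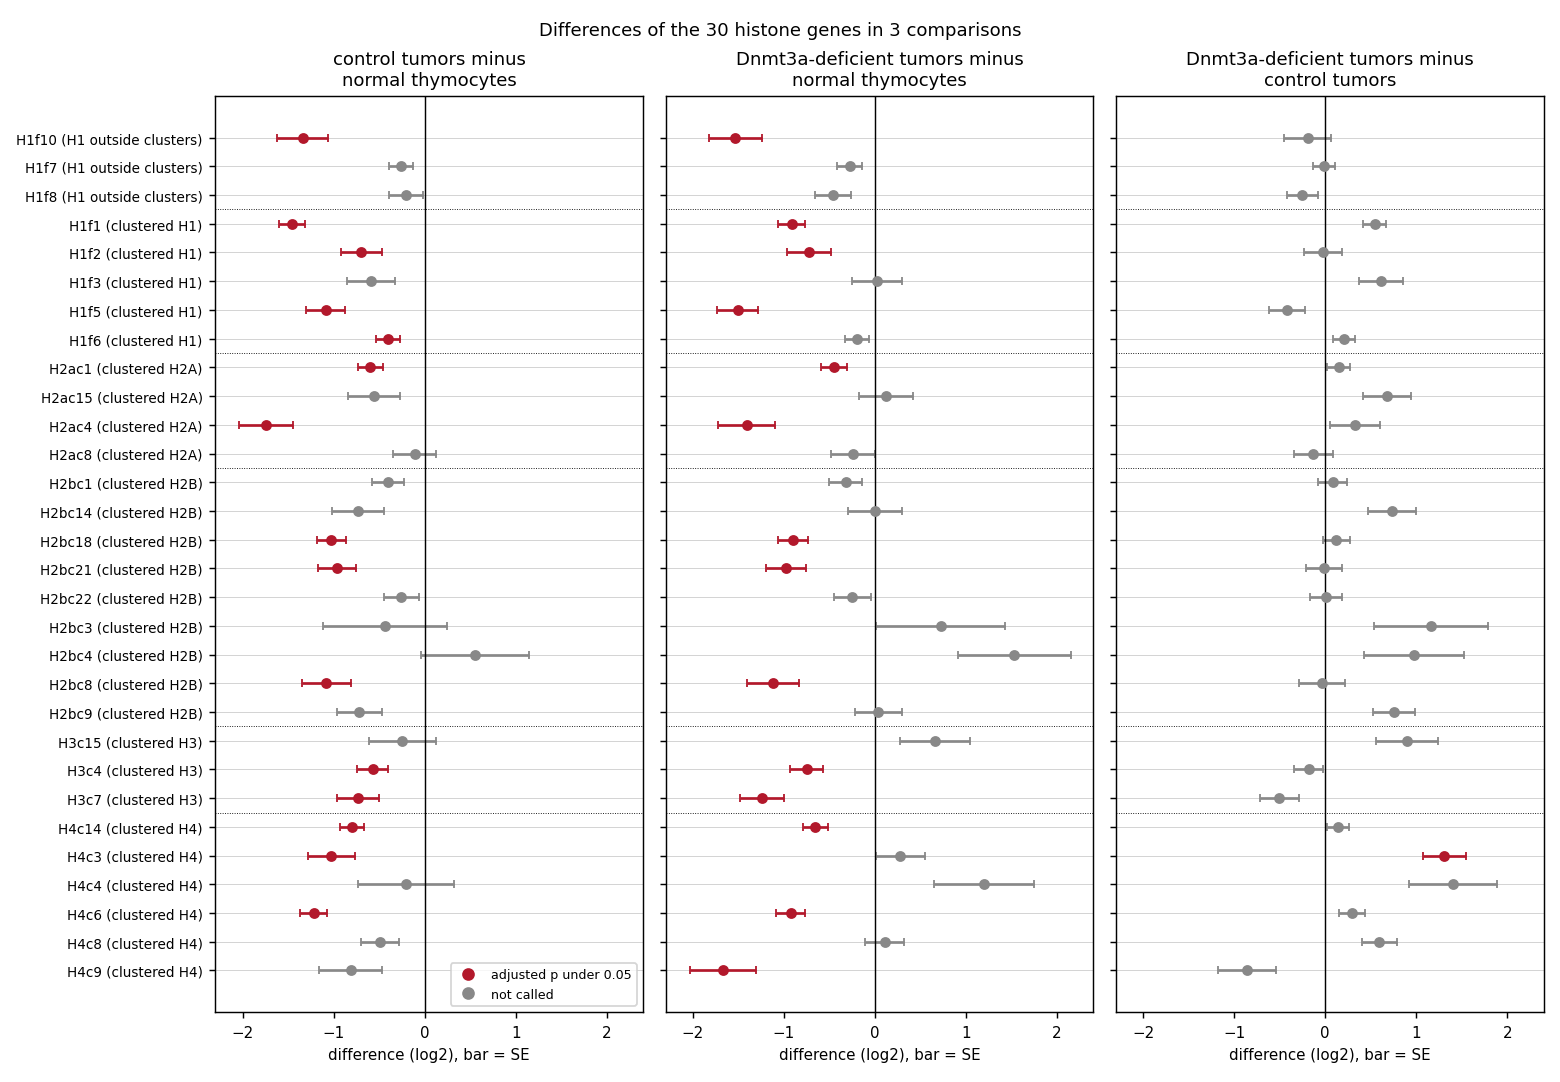
Difference in log2 expression of each of the 30 histone genes (rows, by family) in 3 comparisons, with limma's standard error as the bar. Red points passed an adjusted p of 0.05; no red point lies right of 0 in the tumor-against-normal panels, and H4c3 is the only red point in the comparison of the tumor kinds.

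Of the 8 linker histone genes 5 fell in control tumors and 4 in deficient tumors, against 11.3% and 19.0% of all genes. H1f1 is a replication-dependent H1 known to be high in thymus. It measured 12.24, 12.17 and 12.03 in normal thymocytes, 10.62, 10.72, 10.80, 10.57 and 10.75 in control tumors, and 10.88, 11.25, 11.46 and 11.32 in deficient tumors. All 3 groups were separate, with normal highest and control tumors lowest. H1f1 fell by 1.46 ± 0.14 (SE) in control tumors (2.74-fold, adjusted p = 1.3e-05, limma) and by 0.92 ± 0.15 in deficient tumors (adjusted p = 0.00038). Deficient tumors stood 0.54 ± 0.13 above control tumors, with an adjusted p of 0.076.

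H1f5, another replication-dependent H1, measured 12.84, 12.75 and 12.67 in normal thymocytes. Control tumors gave 11.25, 11.09, 12.03, 12.03 and 11.92, and deficient tumors 11.09, 11.26, 11.31 and 11.33. No tumor reached the normal range, and control tumors 3, 4 and 5 lay above the other 6 tumors. The gene fell by 1.09 ± 0.22 in control tumors (adjusted p = 0.0023) and by 1.51 ± 0.23 in deficient tumors (2.84-fold, adjusted p = 0.0002).

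H1f10, the linker variant outside the clusters, gave 8.31, 8.36 and 8.09 in normal thymocytes. It gave 7.71, 6.88, 6.21, 6.99 and 6.80 in control tumors and 6.50, 6.52, 7.31 and 6.55 in deficient tumors. Every tumor was below every normal sample. The gene fell by 1.34 ± 0.28 (adjusted p = 0.0032) and by 1.53 ± 0.29 (2.89-fold, adjusted p = 0.0012). Whether clustered and unclustered genes differ was not tested.

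H1f2 was lower by 0.70 ± 0.23 in control tumors (adjusted p = 0.04) and by 0.73 ± 0.24 in deficient tumors (adjusted p = 0.029). In control tumors the call was lost without any 1 of the normal arrays or of control tumors 1 and 2 (adjusted p 0.062 to 0.14). In deficient tumors the call was lost without any 1 of the normal arrays or of deficient tumors 1 and 2 (0.051 to 0.092). H1f3 was not called, with values of 7.20, 7.29 and 6.44 in normal thymocytes that overlapped both tumor kinds. The testis gene H1f6, with normal values of 5.66 to 5.94, was 0.40 ± 0.13 lower in control tumors (adjusted p = 0.036). That call was lost without normal array 1 or 3 or without control tumor 1, 2 or 3 (0.053 to 0.12). H1f7 of spermatids differed by -0.26 and -0.28 and the oocyte gene H1f8 by -0.21 and -0.46, and neither was called.

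**Figure D2:**
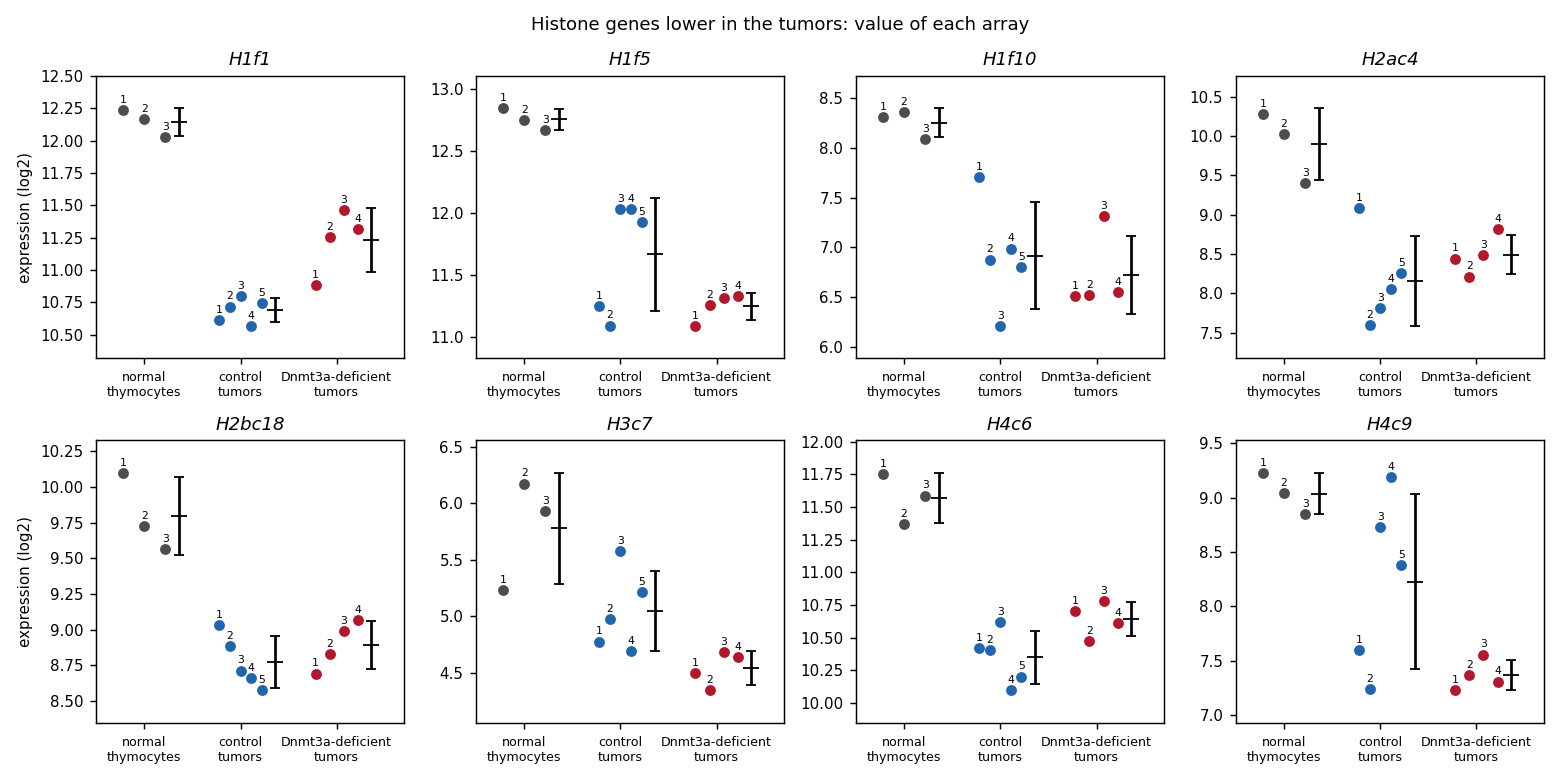
Log2 expression of 8 histone genes on each array (points numbered by replicate; bars are group mean and SD). H1f1, H1f5, H1f10, H2ac4, H2bc18 and H4c6 have every tumor below every normal sample, while in H3c7 and H4c9 control tumors overlap the normal samples. The share of all genes so separated was not counted.

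Of the 4 H2A genes H2ac4 and H2ac1 fell in both tumor kinds. The shares of all genes called lower were 11.3% in control and 19.0% in deficient tumors. H2ac4, a replication-dependent H2A gene, measured 10.28, 10.02 and 9.40 in normal thymocytes, 9.09, 7.60, 7.81, 8.06 and 8.25 in control tumors, and 8.44, 8.21, 8.48 and 8.81 in deficient tumors. The tumors lay below the normal range without overlap. The gene fell by 1.74 ± 0.30 in control tumors (3.34-fold, adjusted p = 0.0008), the largest difference of the 30 genes there, and by 1.41 ± 0.31 in deficient tumors (adjusted p = 0.0032). The germline gene H2ac1 fell by 0.59 ± 0.13 (adjusted p = 0.0053) and by 0.45 ± 0.14 (adjusted p = 0.023). Without normal array 1 or 3, or without deficient tumor 1, the second call was lost (0.056 to 0.086). H2ac8, whose promoter is shared with H2bc8, differed by -0.11 and -0.24 and was not called. H2ac15 was at 12.20, 11.97 and 11.80 in normal thymocytes and 11.98 to 12.21 in deficient tumors, while control tumors gave 12.20 and 12.05 (tumors 1 and 2) and 10.94 to 11.03 (tumors 3, 4 and 5).

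Of the 9 H2B genes 3 were lower in both tumor kinds. Over all genes 11.3% were called lower in control and 19.0% in deficient tumors. In those 3 genes every tumor was below every normal sample, and the share of all genes so separated was not counted. H2bc18, in the cluster on chromosome 3, measured 10.10, 9.73 and 9.57 in normal thymocytes. Control tumors gave 9.03, 8.88, 8.71, 8.66 and 8.57 and deficient tumors 8.69, 8.83, 8.99 and 9.07. The tumor kinds overlapped each other and not the normal samples. The gene fell by 1.02 ± 0.16 (adjusted p = 0.00041) and by 0.90 ± 0.17 (adjusted p = 0.00098). H2bc21 of the same cluster fell by 0.96 ± 0.21 (adjusted p = 0.0045) and by 0.97 ± 0.22 (adjusted p = 0.0038). H2bc8 fell by 1.08 ± 0.27 (adjusted p = 0.01) and by 1.12 ± 0.28 (adjusted p = 0.0079). Without normal array 2, the highest of the normal samples in H2bc8, the control tumor difference was -0.80 with an adjusted p of 0.075. H2bc1 and H2bc22 were -0.40 and -0.26 in control tumors and were not called.

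In H2bc3, H2bc4, H2bc9 and H2bc14, control tumors 1 and 2 stood apart from control tumors 3, 4 and 5. H2bc3 measured 9.87, 9.29 and 8.77 in normal thymocytes, 10.72, 10.53, 7.996, 7.55 and 7.59 in control tumors, and 10.25, 10.10, 9.70 and 10.09 in deficient tumors. Control tumors 1 and 2 were above all other samples and control tumors 3, 4 and 5 below them. The mean difference of control tumors from normal thymocytes was -0.44 ± 0.68, with an adjusted p of 0.69, and that of deficient tumors was 0.72 ± 0.71 (adjusted p = 0.45).

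H2bc4, which can also give polyadenylated RNA, was at 6.21, 6.55 and 6.31 in normal thymocytes. It was at 7.64, 8.83, 6.14, 6.25 and 5.70 in control tumors and 7.07, 7.47, 8.76 and 8.25 in deficient tumors. Every deficient tumor and control tumors 1 and 2 exceeded every normal sample. The mean of deficient tumors was 1.53 ± 0.62 higher (adjusted p = 0.07), and a fit of only those 2 groups called H2bc4 (adjusted p = 0.0054), H2bc3 (0.035) and H4c4 (0.0001) higher. H2bc4 was also called without control tumor 2 (adjusted p = 0.015), an array that enters only the estimate of the spread. H2bc9 measured 10.41 to 10.65 in deficient tumors and 10.22 to 10.72 in normal thymocytes, and 10.48, 10.29, 9.36, 9.40 and 9.56 in control tumors. H2bc14 showed the same order, with 11.73 and 11.68 in control tumors 1 and 2 and 10.35 to 10.74 in control tumors 3, 4 and 5.

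Of the 3 H3 genes with a probe set of their own, H3c7 and H3c4 fell in both tumor kinds. Among all genes 11.3% were called lower in control and 19.0% in deficient tumors. H3c7 measured 5.23, 6.17 and 5.93 in normal thymocytes, 4.78, 4.98, 5.57, 4.70 and 5.22 in control tumors, and 4.50, 4.35, 4.68 and 4.64 in deficient tumors. Deficient tumors lay below both other groups, and control tumors overlapped the normal samples. H3c7 fell by 1.24 ± 0.24 in deficient tumors (adjusted p = 0.0014) and by 0.73 ± 0.23 in control tumors (adjusted p = 0.035). The second call was lost without normal array 2 or 3 or control tumor 1, 2 or 4 (0.057 to 0.19). H3c4 fell by 0.75 ± 0.18 in deficient tumors (adjusted p = 0.0056) and by 0.57 ± 0.17 in control tumors (adjusted p = 0.028). That of control tumors was lost without normal array 2 or 3 or control tumor 1 or 2 (0.051 to 0.13). H3c15 ranged from 4.80 to 6.54 in control tumors and from 6.08 to 7.32 in deficient tumors, and was not called.

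H4 is among the most conserved histones. H4c6 and H4c14 fell in both tumor kinds. H4c6 measured 11.75, 11.37 and 11.59 in normal thymocytes, 10.42, 10.41, 10.62, 10.10 and 10.20 in control tumors, and 10.70, 10.47, 10.78 and 10.61 in deficient tumors. No tumor reached the normal range. H4c6 fell by 1.22 ± 0.15 (2.33-fold, adjusted p = 6.9e-05) and by 0.93 ± 0.16 (adjusted p = 0.00051). H4c14 fell by 0.79 ± 0.13 (adjusted p = 0.00067) and by 0.66 ± 0.14 (adjusted p = 0.0024).

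H4c9 fell in deficient tumors and varied among control tumors. It measured 9.22, 9.04 and 8.85 in normal thymocytes, 7.60, 7.24, 8.73, 9.19 and 8.38 in control tumors, and 7.23, 7.37, 7.56 and 7.31 in deficient tumors. Control tumors 1 and 2 were near the deficient tumors, and control tumors 3, 4 and 5 lay at 8.38 to 9.19. H4c9 fell by 1.67 ± 0.36 in deficient tumors (3.18-fold, adjusted p = 0.0029), the largest difference of the 30 genes there, and differed by -0.81 ± 0.35 in control tumors (adjusted p = 0.11).

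H4c4 was not called in any comparison. It measured 12.20, 11.92 and 11.73 in normal thymocytes, 13.17, 13.09, 11.07, 10.68 and 10.73 in control tumors, and 13.17, 13.09, 13.14 and 13.20 in deficient tumors. The 4 deficient tumors and control tumors 1 and 2 lay between 13.09 and 13.20, above every normal sample, while control tumors 3, 4 and 5 lay below. The mean of deficient tumors was 1.20 ± 0.55 above normal thymocytes, with an adjusted p of 0.10, and that of control tumors differed by -0.20 ± 0.53. H4c8 differed by -0.49 and 0.11 and was not called.

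H4c3 was the only member called between the tumor kinds. It measured 8.98, 8.73 and 8.77 in normal thymocytes, 8.44, 8.01, 7.87, 7.27 and 7.41 in control tumors, and 8.55, 9.27, 9.39 and 9.21 in deficient tumors. Every deficient tumor was above every control tumor, and normal thymocytes lay within the deficient range. H4c3 was 1.31 ± 0.24 higher in deficient than in control tumors (2.47-fold, adjusted p = 0.031). It fell by 1.03 ± 0.26 from normal thymocytes to control tumors (adjusted p = 0.01; 0.082 without control tumors 3, 4 and 5) and differed by 0.28 ± 0.27 in deficient tumors (adjusted p = 0.44).

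Between the tumor kinds 1 of the 30 genes was called higher and 0 lower, against 0.59% of all genes higher and 0.228% lower. At an unadjusted p under 0.05, 9 members were higher and 2 lower, and the shares of all genes at that threshold were not counted. The H4c3 call was lost without any 1 of the 3 normal arrays (adjusted p 0.054 to 0.059), without control tumor 3 (0.075) or 4 (0.07), and without deficient tumor 2 (0.053), 3 (0.10) or 4 (0.11), so that 0 members remained called. Without control tumor 1 there were 5 calls, without control tumor 2 there were 8, and without deficient tumor 1 there were 2. Without both control tumors 1 and 2 there were 12, 10 higher and 2 lower, and without control tumors 3, 4 and 5 there were 0. The split was taken from these same values, so these counts are no separate support for a difference between the tumor kinds. Over all 19309 genes there were 158 calls with every array. There were 1012 without control tumor 1, 1482 without control tumor 2 and 102 without deficient tumor 1. Without control tumors 1 and 2 there were 4886, 3102 higher and 1784 lower, and without control tumors 3, 4 and 5 there were 82. H4c4 was 1.40 ± 0.48 higher in deficient tumors over all arrays (adjusted p = 0.15), 2.32 higher without control tumors 1 and 2, and 0.02 higher without the other 3.

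The spread among control tumors touched 16 of the 30 members. In 10 genes both of control tumors 1 and 2 were above all of tumors 3, 4 and 5, and in 6 both were below, which are H1f2, H1f5, H1f6, H2ac8, H3c4 and H4c9. Of all genes tested 25.5% and 21.1% showed those orders, so the counts of 10 and 6 of 30 are near the background. The standard deviation was larger in control than in deficient tumors in 24 of the 30 members and in 72.2% of all genes. The 75th percentile of the whole array was 8.54 and 8.51 in control tumors 1 and 2, 8.50 to 8.60 in deficient tumors, 8.25 to 8.30 in control tumors 3, 4 and 5, and 8.13 to 8.21 in normal thymocytes. How far this shift of the arrays and the histone values belong together was not tested. In bulk RNA, fewer cells of a type and less RNA per cell cannot be told apart.

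Probe sets that list many histone genes at once showed a like split of the control tumors. Of 31 histone probe sets with several symbols, 24 list 11 to 20 genes, and these cannot be tied to 1 gene. Some H4 sets had identical values on every array, as had some H2B sets, so the sets are not separate measurements. The median of the 5 H4 sets was 13.00, 12.99 and 12.94 in normal thymocytes. It was 13.23, 13.23, 12.27, 12.21 and 12.24 in control tumors and 13.19 to 13.23 in deficient tumors. Control tumors 1 and 2 and the deficient tumors were above the normal samples, and control tumors 3, 4 and 5 below.

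The 10 H3 sets had medians of 13.26, 13.19 and 13.19 in normal thymocytes, 13.48, 13.47, 12.53, 12.66 and 12.61 in control tumors, and 13.45 to 13.53 in deficient tumors. The 7 H2B sets gave 12.42 to 12.61 in normal thymocytes, 12.58 and 12.52 in control tumors 1 and 2, 11.57 to 11.76 in tumors 3, 4 and 5, and 12.51 to 12.65 in deficient tumors. Over the 24 sets, 1 was called lower in control tumors and 0 were called in the other 2 comparisons. It is 1 of the 2 sets that mix families (adjusted p = 0.047). The median difference of the 24 sets was -0.35 in control tumors and 0.23 in deficient tumors. These sets and the single-gene sets were not tested against each other.

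**Figure D3:**
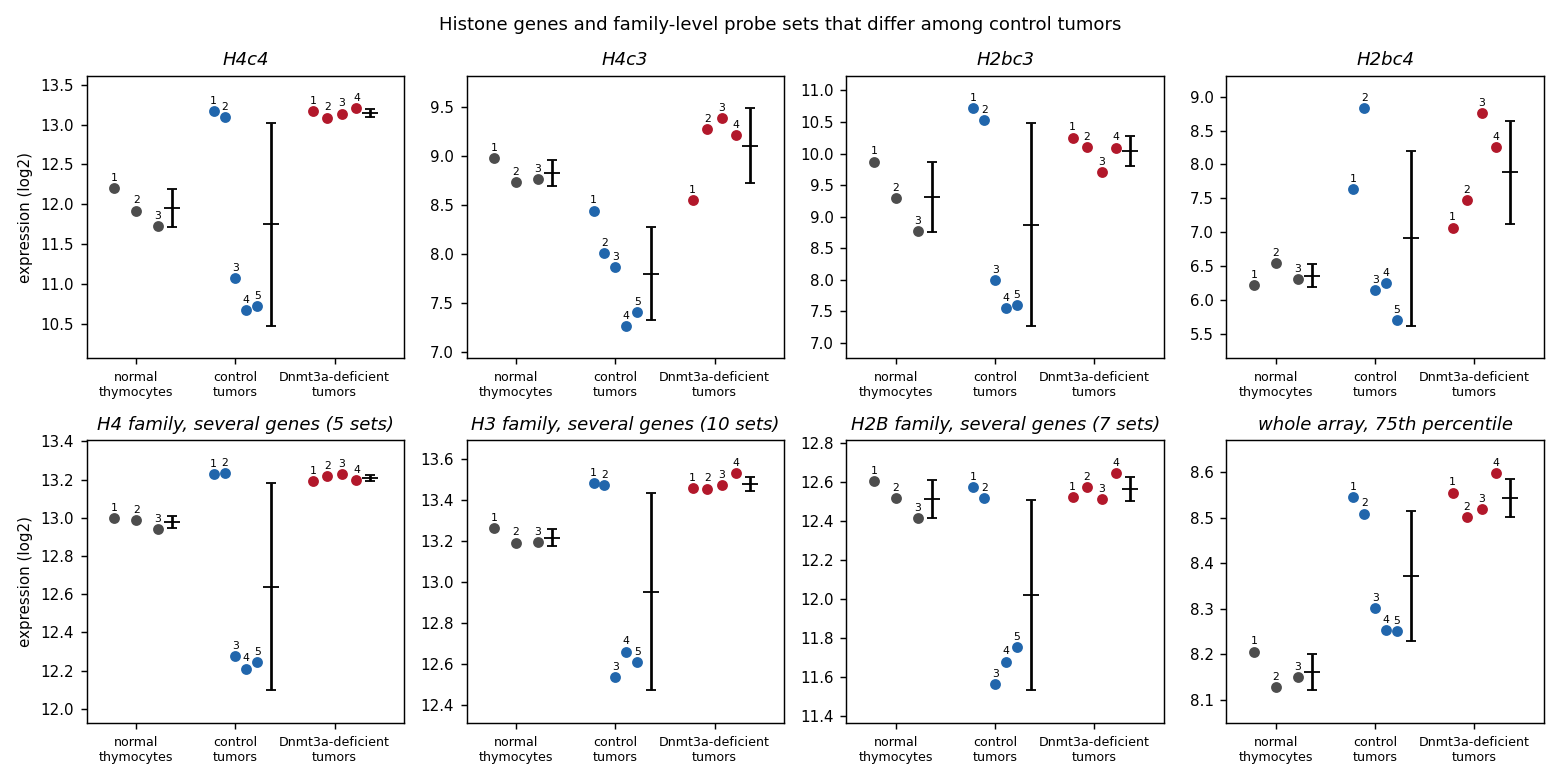
Log2 expression of 4 histone genes (top) and the median of the family-level probe sets for H4, H3 and H2B with the 75th percentile of each array (bottom), 1 point per array, numbered by replicate, with group mean and SD. In H4c4, H2bc3, H2bc4 and the family sets control tumors 1 and 2 sit with the deficient tumors, apart from control tumors 3, 4 and 5.

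Of 15 other histone genes found, 3 fell and 0 rose in control tumors, and 3 fell and 0 rose in deficient tumors. That is 20.0% lower in each, against 11.3% of all genes in control tumors and 19.0% in deficient tumors, where the share is near the background. Of the 15 genes, 8 are somatic variants, of which 2 fell in control and 1 in deficient tumors. H1f10, a member, is not among these 8. Of the 24 clustered genes of somatic cells 12 fell in control and 12 in deficient tumors. The median difference in control tumors was -0.72 for those 24 clustered genes and -0.18 for the 8 variants. In deficient tumors it was -0.45 and -0.44, and between the tumor kinds 0.31 and -0.07. No test compared clustered genes with variants. H2ax, the H2A variant phosphorylated at DNA breaks, measured 10.68, 10.67 and 10.40 in normal thymocytes, 9.41 to 9.82 in control tumors, and 9.29 to 10.18 in deficient tumors. All tumors were below the normal samples, by 1.02 ± 0.19 (adjusted p = 0.0015) and 0.88 ± 0.20 (adjusted p = 0.0036). H2az2, an H2A.Z gene, fell by 1.07 ± 0.25 in control tumors (adjusted p = 0.007) and differed by -0.70 ± 0.26 in deficient tumors (adjusted p = 0.0504). H2az1, the other H2A.Z gene, was 0.20 and 0.34 higher and was not called. H4f16, an H4 gene, fell by 0.67 ± 0.14 (adjusted p = 0.0029) and by 0.49 ± 0.14 (adjusted p = 0.016), the second of which was lost without normal array 1 (0.058) or 2 (0.053). The testis gene H2ab1 fell by 0.44 ± 0.16 in deficient tumors (adjusted p = 0.048), a call lost without normal array 2 or 3, control tumor 1 or any deficient tumor (0.052 to 0.19).

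Macroh2a1 and Cenpa, the centromeric H3 variant, differed from normal thymocytes by -0.15 and -0.04 in control tumors and by -0.04 and -0.33 in deficient tumors, and neither was called. Macroh2a2, Macroh2a3, H2aj, H2aw, H2bu2, Hils1 and H2al2a were not called either, with differences from -0.80 to 0.11 against normal thymocytes. H2bu1-ps, an H2B pseudogene, was 0.82 ± 0.16 higher in deficient than in control tumors (adjusted p = 0.041). That call was lost without normal array 2 or 3, control tumor 3, 4 or 5, or any deficient tumor (0.057 to 0.14). Probe sets for the H3.3 genes carry a second symbol each and were kept apart. Of those 5 sets, 1 was lower in control tumors and 4 in deficient tumors, with differences from -0.73 to -0.08 in the latter. Among all genes tested 11.3% were lower in control and 19.0% in deficient tumors. Their median was 11.38 to 11.41 in normal thymocytes, 10.99 and 11.00 in control tumors 1 and 2, 11.35 to 11.43 in control tumors 3, 4 and 5, and 10.76 to 10.86 in deficient tumors.

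Of 26 genes for histone mRNA synthesis and processing, 12 rose and 1 fell in control tumors, and 11 rose and 0 fell in deficient tumors. Of all genes tested, 13.0% were called higher and 11.3% lower in control tumors, and 18.7% and 19.0% in deficient tumors. Npat measured 6.06, 5.68 and 6.53 in normal thymocytes, 8.63, 8.49, 7.99, 7.43 and 7.997 in control tumors, and 8.996, 8.67, 8.81 and 9.003 in deficient tumors. The 3 groups did not overlap. Npat rose by 2.01 ± 0.26 (adjusted p = 8.8e-05) and by 2.78 ± 0.27 (6.86-fold, adjusted p = 6.6e-06). Casp8ap2, which works with Npat at histone locus bodies, rose by 1.27 ± 0.34 and 2.20 ± 0.35, and the first call was lost without normal array 2 (1.05, adjusted p = 0.089). Eri1, a nuclease that trims histone messages, rose by 0.95 ± 0.25 and 1.61 ± 0.26, and Tut4, which adds uridines to RNA ends, by 2.17 ± 0.60 in deficient tumors. Without normal array 2 the Eri1 call in control tumors (0.80, adjusted p = 0.074) and the Tut4 call (1.67, 0.071) were lost. Cpsf2 and Cpsf3, subunits of the complex that cuts the 3′ end of histone messages, rose by 1.07 and 0.92 in control tumors and by 1.35 and 1.21 in deficient tumors. Slbp, the stem-loop binding protein, differed by -0.10 and -0.33 and was not called, and Mif4gd, which helps translate histone messages, fell by 1.07 ± 0.28 in control tumors (adjusted p = 0.014), a call lost without normal array 1 (0.058) or 2 (0.068).

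Of 32 genes of chaperones, which carry histones to and from DNA, 14 rose and 2 fell in control tumors, and 17 rose and 2 fell in deficient tumors. Over all genes 13.0% were higher and 11.3% lower in control tumors, and 18.7% and 19.0% in deficient tumors. Npm1 and Ncl, nucleolar histone-binding proteins, rose by 2.90 ± 0.31 and 2.88 ± 0.29 in control tumors and by 2.60 and 3.13 in deficient tumors. Nap1l1, a carrier of H2A and H2B, rose by 2.49 ± 0.16 and 2.76 ± 0.17, and Atrx, which deposits H3.3 with Daxx, by 2.48 and 3.06. Ubn1 fell by 1.01 and 1.02 and Daxx by 0.63 and 0.61. The Daxx calls were lost without normal array 1 or 2, control tumor 1, 2 or 3 or any deficient tumor (0.052 to 0.12). The CAF-1 genes Chaf1a and Chaf1b were not called.

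Of 26 S phase genes 9 rose and 1 fell in control tumors and 10 rose and 1 fell in deficient tumors. The shares over all genes were 13.0% higher and 11.3% lower in control tumors, and 18.7% and 19.0% in deficient tumors. Pola1, the catalytic subunit of DNA polymerase alpha, rose by 2.59 and 3.11 and Ccne2, a cyclin E, by 1.37 and 2.58. Pole, of DNA polymerase epsilon, rose by 1.54 and 1.73. The replication factors Pcna, Mcm2 and Mcm7 differed by -0.04 to 0.29 and were not called. Of 18 genes of G2 and mitosis, 9 rose in control and 15 in deficient tumors, and 0 fell, against the same shares over all genes. Bub1, a spindle checkpoint kinase, rose by 3.08 and 4.15 and Kif11, a spindle motor, by 3.01 and 3.88. Mki67, a marker of dividing cells, was at 7.80 to 9.17 in normal thymocytes, 9.93 to 11.45 in control tumors and 11.39 to 11.63 in deficient tumors. Control tumors 4 and 5, at 10.06 and 9.93, had the lowest Mki67 of the tumors. No test set these lists against the histone genes.

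**Figure D4:**
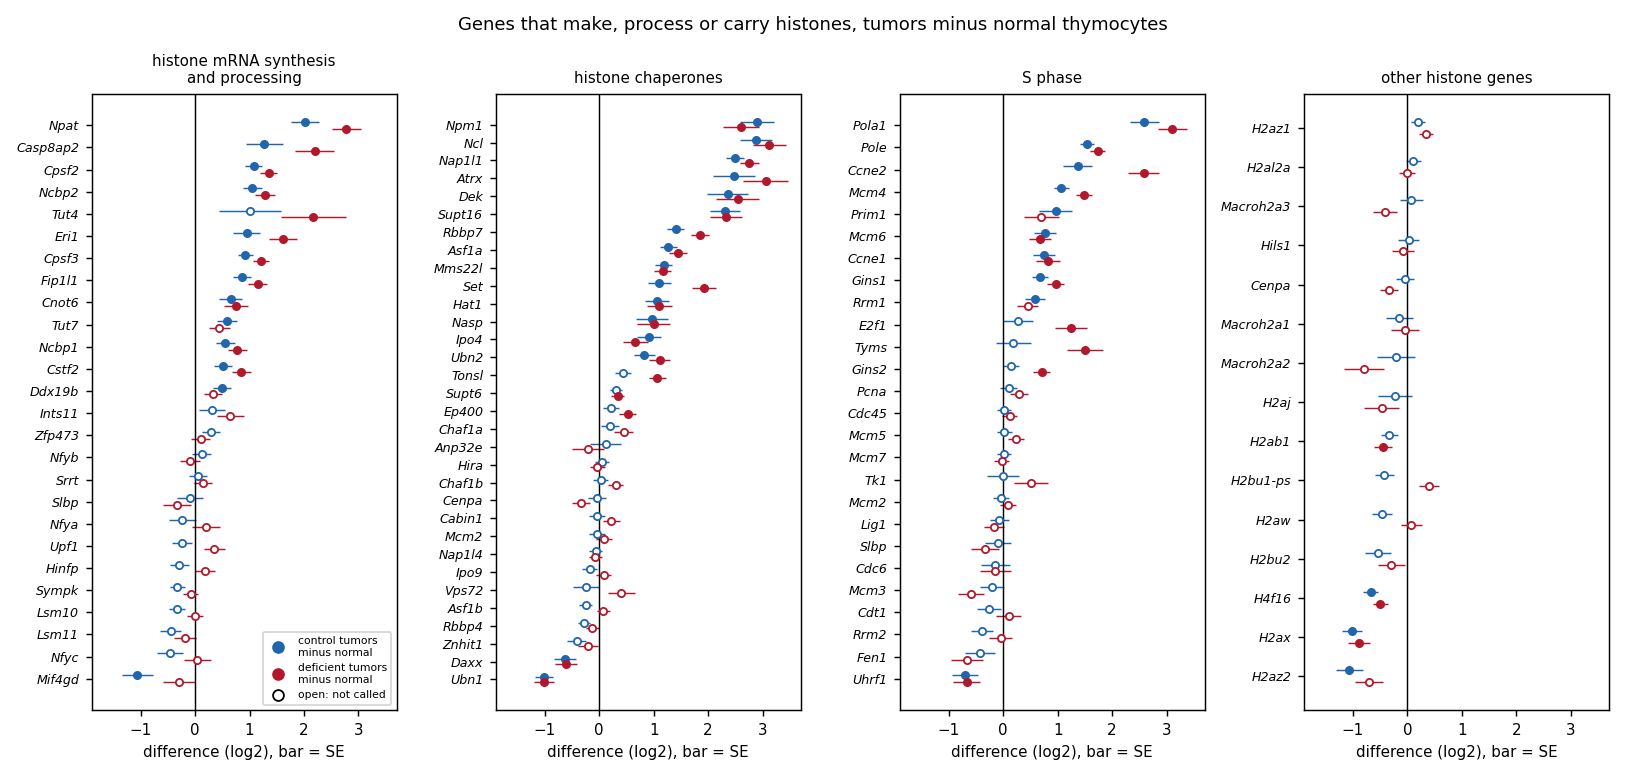
Difference in log2 expression from normal thymocytes for 4 lists of genes, with limma's standard error as the bar. Blue points are control tumors and red points Dnmt3a-deficient tumors, and filled points passed an adjusted p of 0.05. Npat, Casp8ap2, Npm1, Ncl and Pola1 lie right of 0 and H2ax left of it.

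Dnmt3a was lower in the tumors labelled deficient. It was at 9.33 to 9.63 in normal thymocytes, 8.19 to 9.57 in control tumors and 7.19 to 7.62 in deficient tumors, where it fell by 1.25 ± 0.23 from control tumors (adjusted p = 0.032). That call was lost without any 1 normal array, without control tumor 3 or without deficient tumor 1, 3 or 4 (0.057 to 0.11), and no deficient tumor reached the control range. Of 10 T cell genes 5 fell in each tumor kind, against 11.3% of all genes in control and 19.0% in deficient tumors. All 10 differences were below 0 in both, from -2.49 to -0.43 in control and from -3.21 to -0.15 in deficient tumors. The median of the list was 11.71 to 11.75 in normal thymocytes, 10.43 to 11.41 in control tumors and 9.83 to 11.08 in deficient tumors. The median of 7 neutrophil genes reached 8.75 and 8.43 in control tumors 3 and 4 and lay at 5.43 to 6.74 on the rest. The median of 3 fat cell genes was 8.80 in control tumor 2 and 4.70 to 6.20 elsewhere. The neutrophil median of control tumor 5 was 6.13. The part of these other cells in the histone values was not tested.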

How the data were processed

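Per the submitters' processing notes, the authors made the deposited log2 values with RMA in Affymetrix Expression Console. No versions are named there; array percentiles differ, and joint normalization is not stated. The table holds 23858 probe sets, of which 20870 carry 1 gene symbol, 1453 carry more and 1535 carry none. The set with the highest mean over 12 arrays was kept for each gene. Gene IDs of all 30 members matched RefSeq's GRCm38.p6 table.

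Groups came from sample titles. One limma 3.58.1 model of 3 group means (R 4.3.3, 9 residual degrees of freedom) gave 3 contrasts, two-sided, adjusted by Benjamini-Hochberg over 19309 genes, called at adjusted p under 0.05. The fit was tested on simulated data. No filter on dim genes was applied, and the 12 arrays limit the precision. Alternatives were other scalings, probe set rules, fits and leaving out arrays, singly or by the split of the control tumors seen in the values. Members and lists were chosen with earlier results of these data known. Named genes were, by rule, every variant histone, per histone family and comparison the 3 called genes with the largest differences, per other list up to 4 such genes, and Dnmt3a and Mki67. Further members, Cpsf3, Slbp, Daxx, Ubn1, Chaf1a, Chaf1b, Pcna, Mcm2 and Mcm7 were chosen after their values were seen. List genes without a single-symbol probe set were not analysed here.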

Additional observations from a re-analysis of the deposited data

Results flagged for a closer look

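In each of the tumor groups of the 30 members, the highest and lowest arrays were compared with the rest by Dixon's gap, in 60 groups of 4 or 5 arrays. Chance marks about 1 in 20 groups, and 2 were marked. In H1f10, deficient tumor 3 was at 7.31, where the other 3 deficient tumors were at 6.50 to 6.55. In H2bc14, deficient tumor 2 was at 11.89, where the others were at 11.70 to 11.73.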

How the results depend on the processing

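The called genes of control tumors against normal thymocytes numbered 11 to 15 without 1 array, against 15, and 12 to 22 in the other alternatives. Those of deficient tumors numbered 12 to 15, against 14, and 12 to 19. Neither moved by over 1.5 times. Between the tumor kinds the 1 called gene became 2 with median centring, 0 with only the 2 groups compared, 12 with array weights, 12 without control tumors 1 and 2, and 0 without control tumors 3, 4 and 5 (limma; 2 higher and 0 lower at an unadjusted p under 0.05). Over all genes those alternatives called 378, 1, 3328, 4886 and 82 at the adjusted threshold, in that order, against 158. Shares of all genes at the unadjusted threshold were not counted. Without 1 array the number of members called ranged from 0 to 8.

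Groups share replicate numbers that the labels do not tie to animals, and same-numbered arrays had deviations correlated at -0.13 to 0.34. Arrays with different numbers were not compared, so these correlations do not settle whether the numbers pair samples. With the replicate block 13, 15 and 0 members were called in the 3 comparisons. The H4c3 difference between tumor kinds was then 1.21 (adjusted p = 0.085), and H4c4 was called higher in deficient tumors than in normal thymocytes.

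Among differences called in the main analysis or in the alternative, 3 reversed their sign. Supt6, a chaperone gene, differed by -0.044 in deficient tumors with the 75th percentile centring, against 0.34. Without control tumors 3, 4 and 5, H2bc3 and H4c4 were 1.31 and 1.18 higher in control tumors, against -0.44 and -0.20. The median difference of the 30 members between the tumor kinds, 0.14, was -0.036 with the 75th percentile centring, and signs of differences called in neither fit were not counted. Over all genes the 75th percentile centring called 1982 higher and 4185 lower in control tumors, against 2519 and 2187, 2549 and 9244 in deficient tumors, against 3602 and 3660, and 55 and 73 between the tumor kinds, against 114 and 44. Adding probe sets with more than 5 symbols, chosen after seeing the data, gave 16, 14 and 1 calls. The number of arrays limits the precision.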
